A study of Mus musculus with 59 samples.

Results

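Sulfotransferases and the enzymes that activate sulfate were followed in mouse liver through 8 genes: Sult1a1, Sult1b1, Sult1c2, Sult1d1, Sult1e1, Sult5a1, Papss1 and Papss2. The members were chosen by name, as the genes of 1 pathway, out of 18193 genes with a single symbol on the array. Earlier results of these data were known when they were chosen. Where a gene has several probe sets, the one with the highest average across the 59 arrays stood for it. Papss2 has 4 probe sets with its symbol alone, Sult1d1 has 2 and each of the other genes has 1.

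The study hybridised liver RNA of male C57BL/6 mice to 1-colour Affymetrix arrays, 1 array per sample, in 12 groups of 5 arrays, except 1 group with 4. All mice were 6 weeks old at the start and had 2 weeks on their diet before treatment. In 8 groups, mice ate the LRD-5001 or the AIN-76A diet for 5 weeks, and on each diet they received 10 ppb sodium arsenite in water, 100 ppb in water, 10 ppb in food, or none (the controls). The 4-array group is the one on AIN-76A with 100 ppb in water. In 4 further groups, also kept on AIN-76A, mice were injected intraperitoneally and sampled 8 hours later, having received 1 mg/kg dexamethasone together with 1 mg/kg arsenite, 1 mg/kg dexamethasone, 1 mg/kg arsenite, or saline. Dexamethasone is a synthetic glucocorticoid, and arsenite is the trivalent form of inorganic arsenic. Titles describe the arrays within a group as biological replicates and give each a letter. No label says whether mice were pooled or shared a cage, and the p-values measure only the spread between these samples.

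Sulfonation couples a sulfate group to phenols, catecholamines, steroids and many drugs, which makes them more soluble in water and, for hormones, usually inactive. The donor is the activated sulfate PAPS, which a PAPS synthase (Papss1 or Papss2) makes from ATP and inorganic sulfate. Cytosolic sulfotransferases (the Sult genes) then pass the sulfate to the substrate, and the liver is a main site of this reaction.

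Expression is given as the deposited log2 value, so a difference of 1 is a doubling of signal, and values of different probe sets are not compared with each other. A difference was called where limma gave an adjusted p under 0.05 over all 45037 probe sets tested. The tissue label was checked against 7 hepatocyte genes, whose mean level lay between 12.3 and 12.8 on every array. In bulk liver, fewer cells of a type and less RNA per cell cannot be told apart. A principal component of the deviations from group means held 27.4% of the variance of the brighter probe sets. In each group the array with the lowest score was taken as standing apart, so the rule itself gives 1 per group, 12 in all. Their scores were at most -0.136, and those of all other arrays at least -0.077. Low scores were defined to go with a low upper quartile, so the next difference is partly built in. The upper quartile of these arrays was lower than that of the rest of their group by 0.267 ± 0.081 (mean ± SD over 12 groups). Sult1d1 was lower in this array than the mean of the rest of its group in 12 of 12 groups, by 0.89 ± 0.35 (mean ± SD over 12 groups). Among all probe sets, 6.13% were lower in 12 of 12 groups, and among the 5818 with a mean of 6 or more, which defined the component and include Sult1d1, 17.7% were. Sult1b1, Sult1c2, Sult1e1 and Papss1 were lower in 10 of 12 groups, Papss2 in 9, Sult1a1 in 6 and Sult5a1 in 5. The counts of calls given below for dexamethasone, for the combined injection and for the averaged diets were also fitted without these arrays. For Sult1d1 such a fit drops the lowest array of every group, and for Sult1e1 that of the dexamethasone, combined and saline groups. For Sult1b1 and Papss2 it drops the lowest array of most 5-week groups. This narrows the spread, so such a fit adds no support for these genes.

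**Figure D1:**
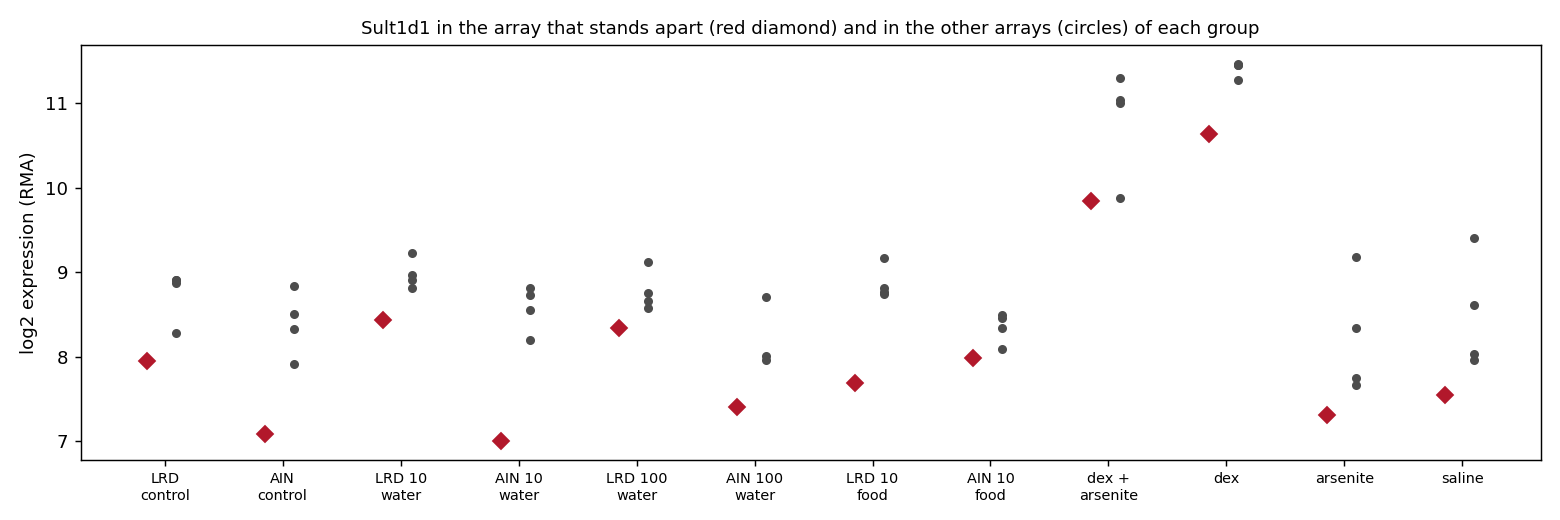
Sult1d1 (log2 expression, vertical axis) in the array of each of the 12 groups that stood apart (red diamonds) and in the other arrays of the group (circles). The diamond is the lowest point of its group throughout, from 7.01 on AIN-76A with 10 ppb in water to 10.64 after dexamethasone.

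Sult1b1, Sult1d1 and Sult1e1 are direct neighbours on chromosome 5, with no other RefSeq gene between them. In the GRCm38.p6 assembly Sult1b1 lies at chr5:87513327-87538195, Sult1d1 at chr5:87554650-87569006 and Sult1e1 at chr5:87575968-87591611. The gaps are 16454 bases between Sult1b1 and Sult1d1 and 6961 bases between Sult1d1 and Sult1e1, and all 3 genes are read from the minus strand. The other members lie elsewhere: Sult1a1 on chromosome 7, Sult1c2 on chromosome 17, Sult5a1 on chromosome 8, Papss1 on chromosome 3 and Papss2 on chromosome 19. Because the 3 neighbours gave different patterns in the results below, the 250 bases before each of their start sites are shown, from RefSeq on GRCm38.p6, 5′ to 3′ on the minus strand. Sult1b1 has 2 start sites in that table, at intervals chr5:87538196-87538445 and chr5:87536223-87536472. The intervals of Sult1d1 and Sult1e1 are chr5:87569007-87569256 and chr5:87591612-87591861. Capitals mark a match, on either strand, to a nuclear receptor half-site (AGGTCA) or a glucocorticoid receptor half-site (AGAACA).
Sult1e1: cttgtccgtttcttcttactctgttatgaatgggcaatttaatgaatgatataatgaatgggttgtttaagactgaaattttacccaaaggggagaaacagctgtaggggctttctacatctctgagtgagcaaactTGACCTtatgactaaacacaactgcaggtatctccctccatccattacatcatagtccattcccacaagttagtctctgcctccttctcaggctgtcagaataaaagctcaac
Sult1d1: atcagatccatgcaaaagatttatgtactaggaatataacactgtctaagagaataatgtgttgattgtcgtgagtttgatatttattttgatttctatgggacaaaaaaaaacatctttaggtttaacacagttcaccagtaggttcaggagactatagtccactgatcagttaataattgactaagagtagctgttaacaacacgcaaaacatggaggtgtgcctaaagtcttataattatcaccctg
Sult1b1, start site 1: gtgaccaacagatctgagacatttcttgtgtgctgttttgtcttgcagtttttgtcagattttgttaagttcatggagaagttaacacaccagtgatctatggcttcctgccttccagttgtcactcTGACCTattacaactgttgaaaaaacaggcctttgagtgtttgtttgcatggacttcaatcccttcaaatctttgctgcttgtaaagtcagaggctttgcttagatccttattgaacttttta
Sult1b1, start site 2: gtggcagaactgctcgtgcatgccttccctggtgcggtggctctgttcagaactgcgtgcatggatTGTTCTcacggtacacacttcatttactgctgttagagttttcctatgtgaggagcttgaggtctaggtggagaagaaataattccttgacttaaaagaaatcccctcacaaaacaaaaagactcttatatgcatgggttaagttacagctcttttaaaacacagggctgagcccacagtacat

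The Sult1e1 sequence holds 1 reversed nuclear receptor half-site, TGACCT, whose first base lies at position -113 from the start site. Start site 1 of Sult1b1 holds the same letters at position -123, and start site 2 of Sult1b1 holds a reversed glucocorticoid receptor half-site, TGTTCT, at position -184. No match to either half-site was found in the Sult1d1 window. Of 32851 promoter windows of this length, 14% hold the nuclear receptor half-site and 16.1% the glucocorticoid receptor half-site, so these matches are common. The full glucocorticoid receptor palindrome, 2 half-sites facing each other with 3 bases between, occurs in 0.00913% of windows and in none of the 11 windows of the 8 members. G and C made up 40.8% of the bases of the Sult1e1 window, 34.0% of the Sult1d1 window and 39.2% of the first Sult1b1 window, against a median of 52.4% over all windows. The half-site matches describe letters only, and sites outside these windows were not searched.

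At 8 hours after dexamethasone, the 2 neighbours Sult1e1 and Sult1d1 rose steeply while the interval of Sult1b1 included 0. Sult1e1, the estrogen sulfotransferase, which inactivates estradiol and estrone, had levels of 7.73, 6.19, 7.50, 8.16 and 7.26 in mice given dexamethasone (replicates A, C, D, E and F), against 2.39, 2.46, 3.04, 2.74 and 2.08 after saline (replicates A, B, C, E and F). All 5 dexamethasone arrays lay above all 5 saline arrays, with more than 3 log2 units between the groups. The difference was 4.82 (SE 0.53), a 28.3-fold rise with an adjusted p of 7.9e-05 in limma. The saline level of Sult1e1 is close to the array medians of 2.42 to 2.59, where array signal changes little with RNA, so this fold may understate the change.

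Sult1d1, a sulfotransferase of catecholamines and other amines in rodents, had levels of 11.45, 10.64, 11.28, 11.47 and 11.45 after dexamethasone, against 8.03, 9.41, 8.61, 7.96 and 7.55 after saline. Again the groups did not overlap, and the lowest dexamethasone array, C, was the one of that group that stood apart. The difference was 2.95 (SE 0.38), a 7.70-fold rise with an adjusted p of 0.000232 in limma. A second Sult1d1 probe set gave 2.94 with an adjusted p of 0.000888. These 2 of 8 members compare with 0.984% of all probe sets called higher in this contrast, and 1.74% called in either direction. Non-overlapping groups with dexamethasone higher were found for 1.88% of probe sets and for the same 2 members. With the arrays that stood apart left out, both were still called. In both genes the arrays left out were the lowest of the dexamethasone and saline groups. This narrows the spread, so the fit adds no support.

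Sult1b1, which sulfonates thyroid hormones and small phenols and adjoins Sult1d1, had levels of 5.76, 4.84, 5.91, 5.90 and 6.51 after dexamethasone, against 4.97, 6.41, 5.83, 6.06 and 5.29 after saline. The groups overlapped throughout, and the difference was 0.07 (95% interval -0.88 to 1.02, adjusted p 0.981 in limma). The remaining members were not called either. Sult5a1, whose substrate is not well known, differed by 0.77 (95% interval -0.04 to 1.58). Papss1 differed by -0.62 (95% interval -1.30 to 0.06) and Papss2 by -0.53 (95% interval -1.05 to -0.01, adjusted p 0.434 in limma). Both PAPS synthase differences were therefore on the negative side without passing the test. Sult1a1, the main phenol sulfotransferase of the liver, differed by -0.13 (95% interval -0.45 to 0.18) and Sult1c2, another phenol sulfotransferase, by -0.37 (95% interval -1.11 to 0.37).

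As a check of the injection, Fkbp5, a gene that the glucocorticoid receptor switches on directly, averaged 9.76 after dexamethasone and 6.78 after saline, a rise of 2.98 with an adjusted p of 0.00565 in limma. It was the only 1 of 6 glucocorticoid target genes in the check list that was called. Markers of neutrophils and Kupffer cells also stood lower after dexamethasone without any being called. No gene of the other cell type lists was called either, and the median difference of the endothelial list was 0.003. The mean of the neutrophil genes S100a8 and S100a9 lay between 2.45 and 2.97 after dexamethasone and between 4.27 and 9.89 after saline. The mean of 6 Kupffer cell genes lay between 6.08 and 6.57 after dexamethasone and between 6.15 and 8.99 after saline. Their part in the Sult1e1 and Sult1d1 results was not tested.

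**Figure D2:**
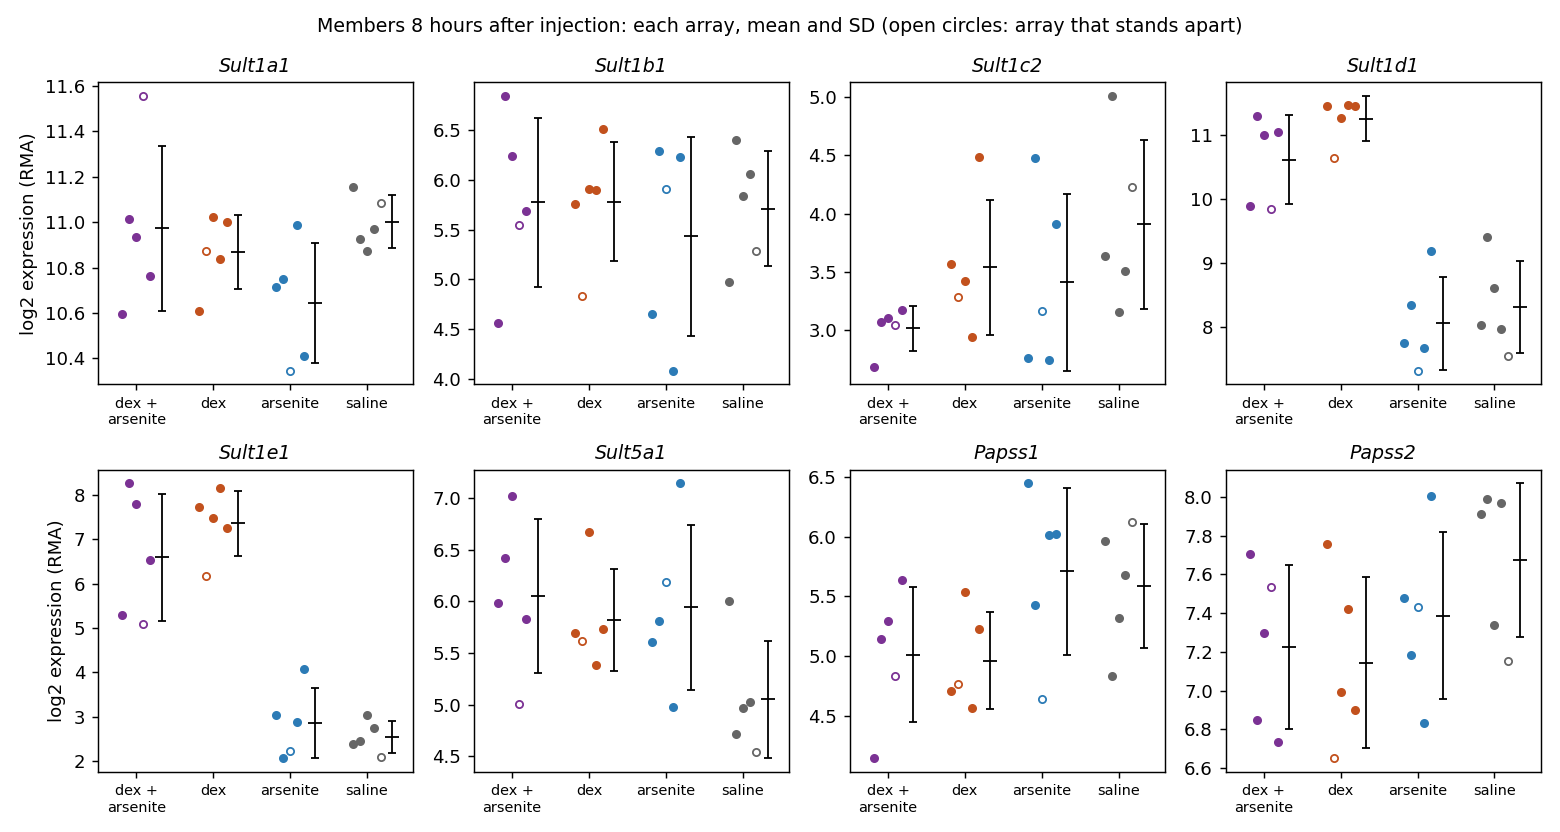
Levels of the 8 members (log2 expression, vertical axis of each panel) 8 hours after injection of dexamethasone with arsenite, dexamethasone, arsenite or saline. Circles are arrays, open for the array of each group that stood apart, and bars are the mean and SD. Sult1e1 and Sult1d1 separate the 2 dexamethasone groups from the other 2, with Sult1e1 at 5.09 or higher in the first pair and at 4.08 or lower in the second.

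Dexamethasone given with arsenite was set against the same saline arrays, so the comparison is not independent of the previous one. Sult1e1 had levels of 5.30, 8.27, 7.80, 5.09 and 6.54 after the combined injection (replicates A, C, D, E and F). All 5 lay above the saline arrays listed above, and replicates A and E lay below every array of the group given dexamethasone alone. The difference from saline was 4.06 (SE 0.53), a 16.6-fold rise with an adjusted p of 0.000638 in limma.

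Sult1d1 had levels of 9.88, 11.30, 11.01, 9.85 and 11.04 after the combined injection, and the same replicates A and E were the 2 lowest. All 5 arrays lay above the highest saline array, and the difference was 2.30 with an adjusted p of 0.00364 in limma, a 4.94-fold rise. Replicate E was the array of this group that stood apart, whereas replicate A was not. In those arrays Fkbp5 was at 10.15 in A and 8.61 in E, against 9.94, 10.17 and 9.64 in C, D and F. Array A also had S100a8 at 7.49 and S100a9 at 8.66, where the other 4 arrays of the group had at most 4.11 and 4.66. The part of these genes in the Sult levels was not tested.

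Only Sult1e1 and Sult1d1, 2 of 8 members, were called after the combined injection, and 0.502% of all probe sets were called higher. Non-overlapping groups with the combined injection higher were found for 1.03% of probe sets. Sult5a1 (1.00, 95% interval 0.20 to 1.81) and Sult1c2 (-0.89, 95% interval -1.64 to -0.15) were at an unadjusted p under 0.05 against saline. So were 9.78% of all probe sets, and the adjusted p of these 2 genes was 0.34 and 0.364 in limma. Set against arsenite alone, the combined injection gave 3.74 for Sult1e1 (adjusted p 0.00105 in limma) and 2.56 for Sult1d1 (adjusted p 0.00152 in limma), where 0.58% of probe sets were called higher. Set against dexamethasone alone it gave -0.77 for Sult1e1 (95% interval -1.88 to 0.35) and -0.64 for Sult1d1 (95% interval -1.43 to 0.14). Neither was called, and 0 probe sets were called in that contrast by limma, with 1744 at an unadjusted p under 0.05. The interaction of dexamethasone and arsenite was -1.08 for Sult1e1 (95% interval -2.66 to 0.49) and -0.38 for Sult1d1 (95% interval -1.49 to 0.73).

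No member was called after arsenite alone. Sult1e1 had levels of 3.04, 2.08, 2.23, 2.88 and 4.08 after arsenite (replicates A, B, D, E and F) and a difference from saline of 0.32 (95% interval -0.79 to 1.43). Sult1d1 had levels of 7.76, 8.35, 7.32, 7.67 and 9.19 and a difference of -0.26 (95% interval -1.04 to 0.53). Both overlapped the saline arrays, and in both genes replicate F was the highest of the arsenite group. Among all probe sets 0 were called by limma, with 1414 (3.14%) at an unadjusted p under 0.05. Of the members, Sult5a1 (0.89, 95% interval 0.08 to 1.70) and Sult1a1 (-0.36, 95% interval -0.67 to -0.05) were at an unadjusted p under 0.05, both with an adjusted p of 1 in limma.

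The diets separated a different set of members. Averaged over the 4 exposure levels, 4 of 8 members were higher on LRD-5001, a natural-ingredient chow, than on AIN-76A, a purified diet: Sult1b1, Sult5a1, Papss2 and Sult1d1. In this contrast 2.67% of all probe sets were called higher and 4.26% in either direction, and no member was called lower. With the arrays that stood apart left out, the same 4 members were called. For Sult1b1, Papss2 and Sult1d1 the array left out was the lowest in most or all of these groups. This narrows the spread, so the fit adds no support for those genes.

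Sult1b1 showed the largest of these differences. In control mice it had levels of 6.75, 7.54, 7.53, 6.95 and 7.43 on LRD-5001 (replicates B to F), against 6.51, 3.77, 5.57, 5.11 and 5.64 on AIN-76A (replicates B to F). These groups did not overlap, though array C on AIN-76A, which stood apart, lay far below the others. Their difference was 1.92 (SE 0.40), 3.78-fold, with an adjusted p of 0.0118 in limma. Here 0.4% of all probe sets were called higher, and Sult1b1 was the 1 member called. Without array C the difference was 1.53 with an adjusted p of 0.0639 in limma, which misses the threshold. With the arrays that stood apart left out of all groups it was 1.65 with an adjusted p of 0.00438 in limma. In both control groups the array left out was the lowest for Sult1b1, which narrows the spread, so the smaller p adds no support. Higher levels without overlap were found on LRD-5001 for 1.11% of probe sets.

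At 10 ppb in water Sult1b1 was at 7.03, 7.24, 7.44, 6.72 and 6.43 on LRD-5001 and at 5.28, 4.83, 6.42, 6.01 and 5.85 on AIN-76A. At 100 ppb in water it was at 7.40, 7.01, 7.17, 7.02 and 6.66 on LRD-5001 and at 5.70, 4.46, 5.77 and 4.52 on AIN-76A. With 10 ppb in food it was at 7.23, 4.99, 5.98, 7.41 and 7.13 on LRD-5001 and at 5.76, 6.05, 4.98, 5.88 and 6.17 on AIN-76A. The diets did not overlap for either water dose, as for 0.893% of probe sets at 10 ppb and 2.6% at 100 ppb with LRD-5001 higher, and they overlapped with arsenite in food, where 2 arrays on LRD-5001 fell among those on AIN-76A. The within-exposure differences were 1.30 at 10 ppb in water (adjusted p 0.242 in limma), 1.94 at 100 ppb in water (adjusted p 0.00925 in limma) and 0.78 in food (95% interval -0.04 to 1.59). No member was called at 10 ppb in water or in food, where 0.344% and 0.295% of probe sets were called. Averaged over exposures, Sult1b1 differed by 1.48 (SE 0.20), 2.79-fold, with an adjusted p of 3.86e-06 in limma. Over the 12 groups its mean was highest in the 4 LRD-5001 groups, between 6.55 and 7.24, and lay between 5.11 and 5.78 in the 8 groups on AIN-76A, injected mice included.

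Sult5a1 lay between 6.41 and 7.42 in the 20 arrays on LRD-5001 (median 6.90) and between 4.18 and 6.82 in the 19 arrays of the 5-week groups on AIN-76A (median 6.25). The ranges overlapped between 6.41 and 6.82, with arrays on LRD-5001 alone above and arrays on AIN-76A alone below. The averaged difference was 0.81 (SE 0.15, adjusted p 0.000637 in limma), 1.75-fold. Papss2 lay between 7.87 and 8.96 on LRD-5001 (median 8.59) and between 6.63 and 8.54 on AIN-76A (median 8.09). Its averaged difference was 0.57 (SE 0.12, adjusted p 0.00189 in limma), 1.49-fold. Of its 3 other probe sets, 2 were called the same way, at 0.77 and 0.68 (adjusted p 2.45e-05 and 0.0137 in limma). The remaining one was dim, with a mean of 2.17 over all arrays, and was not called (0.07, adjusted p 0.621 in limma). Papss1, which encodes the other PAPS synthase, differed by 0.07 (95% interval -0.19 to 0.32), so the call was on Papss2 and not on Papss1, a difference between genes that was not itself tested.

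Sult1d1 lay between 7.69 and 9.23 on LRD-5001 (median 8.80) and between 7.01 and 8.84 on AIN-76A (median 8.33). The averaged difference of 0.52 (SE 0.15) had an adjusted p of 0.0412 in limma, just inside the threshold. It missed the threshold in 24 of 39 fits that each dropped 1 array, and the second Sult1d1 probe set gave 0.39 with an adjusted p of 0.091. It also missed it when all 59 arrays were fitted together (adjusted p 0.0793 in limma) and when array medians were set equal (adjusted p 0.0551 in limma). With the 8 arrays of these groups that stood apart left out, it was 0.46 with an adjusted p of 0.00229 in limma. Those arrays hold the lowest Sult1d1 value of each group, so leaving them out narrows the spread. The smaller p therefore adds no support for the call. Beside Papss1, 3 more members were not called between the diets. Sult1e1 differed by -0.32 (95% interval -0.68 to 0.03), Sult1c2 by -0.11 (95% interval -0.46 to 0.23) and Sult1a1 by -0.04 (95% interval -0.22 to 0.14). For Sult1a1 this interval is narrow, within 0.22 log2 units of no difference.

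**Figure D3:**
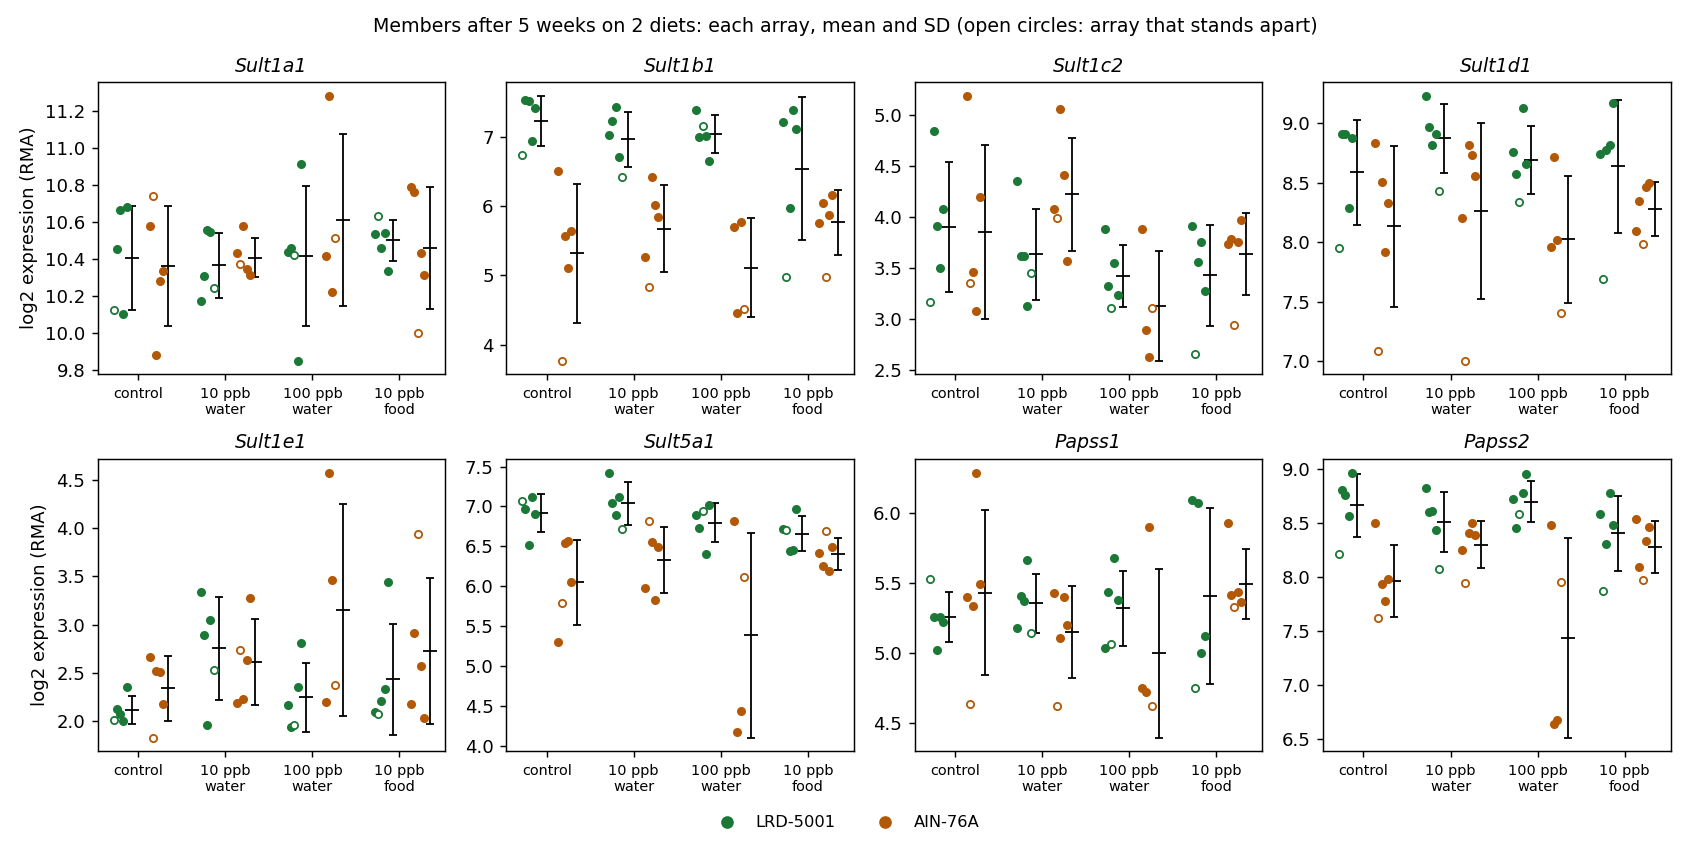
Levels of the 8 members (log2 expression, vertical axis of each panel) after 5 weeks on LRD-5001 (green, left of each pair) or AIN-76A (orange, right of each pair). Mice had no added arsenite, 10 or 100 ppb in water, or 10 ppb in food. Circles are arrays, open for the array of each group that stood apart, and bars are the mean and SD. Sult1b1 averaged 7.24 on LRD-5001 and 5.32 on AIN-76A in control mice, and the 2 low AIN-76A arrays at 100 ppb for Sult5a1 (4.18 and 4.43) and Papss2 (6.63 and 6.68) stand clear of the rest.

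Replicates B and C of the 100 ppb water group on AIN-76A carried much of the Sult5a1 and Papss2 diet difference at that dose. Sult5a1 had levels of 6.89, 6.72, 6.94, 6.41 and 7.02 on LRD-5001 with 100 ppb (replicates A, B, D, E and F), against 6.82, 4.18, 4.43 and 6.12 on AIN-76A with 100 ppb (replicates A to D). Papss2 had levels of 8.72, 8.45, 8.58, 8.78 and 8.95 on LRD-5001, against 8.47, 6.63, 6.68 and 7.95 on AIN-76A. In both genes replicates B and C on AIN-76A were far below all other 5-week arrays, and replicate A lay within the LRD-5001 range. Injected mice reached similar levels, with a lowest array of 4.54 for Sult5a1 after saline and 6.65 for Papss2 after dexamethasone. The diet differences at this dose were 1.41 for Sult5a1 (adjusted p 0.013 in limma) and 1.26 for Papss2 (adjusted p 0.00394 in limma). With Sult1b1 they made 3 of 8 members called at 100 ppb, where 1.43% of probe sets were called higher. Sult5a1 was not called between diets elsewhere, at 0.86 in controls, 0.71 at 10 ppb in water and 0.25 in food. Papss2 was not called there either, at 0.70, 0.21 and 0.12 in the same order.

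Replicates B and C also stood high for some other genes. In the 100 ppb AIN-76A group, Fkbp5 was at 5.17, 8.82, 8.55 and 5.86 in replicates A to D, against 4.91, 6.22, 5.15, 5.48 and 5.23 in the AIN-76A controls. The neutrophil gene S100a8 was at 2.15, 7.42, 7.67 and 6.35 in the 100 ppb group, against 2.25, 5.78, 2.86, 4.49 and 4.92 in the controls. Sult1e1 was at 2.20, 4.57, 3.46 and 2.37 in the 100 ppb group, against 2.66, 1.83, 2.52, 2.51 and 2.18 in the controls. Thus B and C were the highest arrays of the 2 groups for Fkbp5, S100a8 and the member Sult1e1, and the lowest for Sult5a1 and Papss2. Saa2, an acute phase gene added after seeing the data, was at 8.96, 13.14, 13.33 and 12.69 in the 100 ppb group, against 6.63, 13.26, 7.02, 13.03 and 11.40 in the controls. There control array C lay above B, so B and C were not the highest pair.

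With B and C both left out, a choice made after seeing the data, the diet difference at 100 ppb was 0.33 for Sult5a1 (adjusted p 0.571 in limma) and 0.48 for Papss2 (adjusted p 0.288 in limma). Sult1b1 stayed at 1.94 without them, with an adjusted p of 0.056 in limma on the 2 arrays left. Averaged over exposures, the diet differences without B and C were 0.54 for Sult5a1 (adjusted p 0.00169 in limma) and 0.38 for Papss2 (adjusted p 0.0116 in limma), smaller than with them and still called. With all arrays and averaged over exposures, S100a8 and S100a9, the 2 neutrophil genes measured of 3 listed, were both called lower on LRD-5001. So were 3 of 6 Kupffer cell genes, where 1.59% of all probe sets were called lower. In controls 0 genes of these lists were called. At 100 ppb in water both neutrophil genes and 0 Kupffer cell genes were called lower on LRD-5001. Values of these genes without B and C are not given. The mean of the Kupffer cell genes lay between 6.54 and 7.68 on LRD-5001 and between 6.78 and 7.87 on AIN-76A. That of the neutrophil genes lay between 2.61 and 4.65 on LRD-5001 and between 2.67 and 7.76 on AIN-76A. The part of other cells in the diet differences was not tested.

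**Figure D4:**
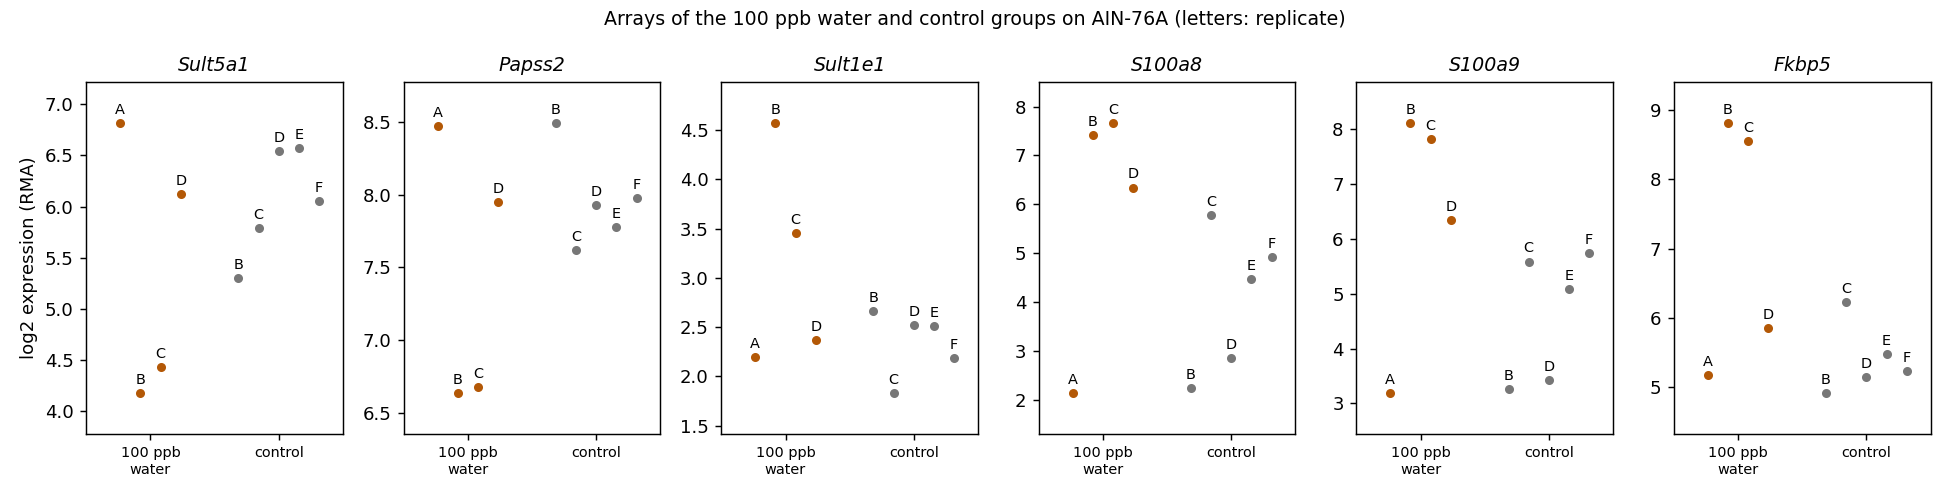
Each array of the 100 ppb arsenite water group (orange, left) and the control group (grey, right) on AIN-76A, with the replicate letter, for Sult5a1, Papss2, Sult1e1, the neutrophil genes S100a8 and S100a9, and the glucocorticoid target Fkbp5 (log2 expression). Replicates B and C are lowest for Sult5a1 and Papss2 and highest for the other 4 genes.

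Arsenite over 5 weeks gave no call for any member, in limma, in any of the 6 comparisons with the control of the same diet. The comparison of 100 ppb in water with control on AIN-76A came nearest. There 4 members were at an unadjusted p under 0.05: Sult1e1 (0.81, 95% interval 0.07 to 1.55), Sult1c2 (-0.73, 95% interval -1.44 to -0.01), Sult5a1 (-0.66, 95% interval -1.32 to -0.01) and Papss2 (-0.53, 95% interval -1.03 to -0.02). Of all probe sets, 8.87% were at an unadjusted p under 0.05 in this comparison and 0.00888% were called. The smallest adjusted p among the members was 0.499. Without replicate A of the 100 ppb group, Sult5a1 and Papss2 were called lower, and so were 0.664% of all probe sets. In the other 5 comparisons no member was at an unadjusted p under 0.05, and the intervals of the members reached from -1.51 at the lowest to 1.34 at the highest. None of the 3 diet by exposure interactions was called for a member, and at 100 ppb the smallest adjusted p was 0.871 in limma.

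**Figure D5:**
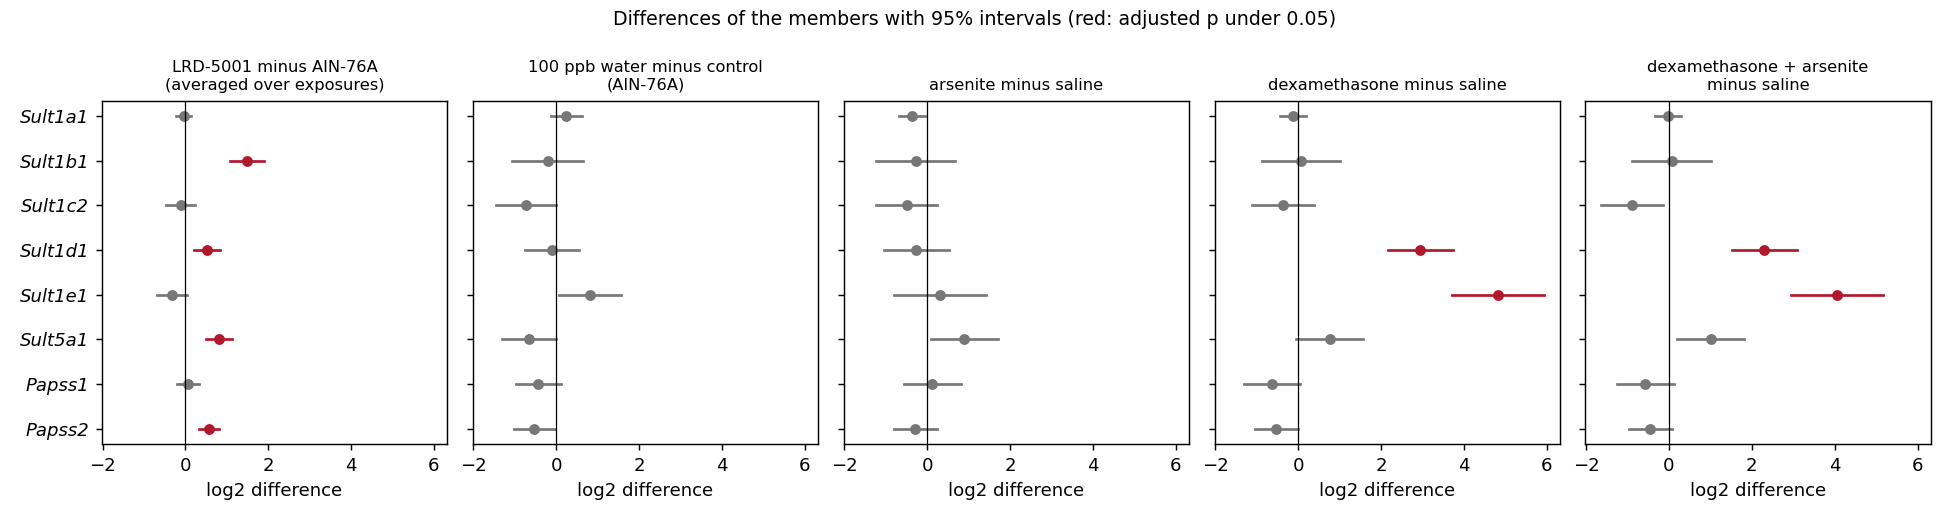
Log2 differences of the 8 members (points) with 95% intervals (lines) for the diets averaged over exposures, 100 ppb arsenite in water on AIN-76A, and the injections of arsenite, dexamethasone and both. Red marks an adjusted p under 0.05: Sult1b1, Sult1d1, Sult5a1 and Papss2 in the first panel, and Sult1d1 and Sult1e1 in the last 2.

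The saline mice were also set against the undisturbed AIN-76A controls, in a fit of all 59 arrays. Handling, injection and the length of the experiment cannot be told apart in this comparison. No member was called by limma, and 0 probe sets passed, with 1989 at an unadjusted p under 0.05. Sult1a1 had levels of 11.16, 10.93, 10.88, 10.97 and 11.08 in saline mice, against 10.57, 10.74, 9.88, 10.28 and 10.34 in controls. The groups did not overlap, as for 0.271% of all probe sets with saline higher, and the difference was 0.64 (SE 0.17, adjusted p 1). Sult5a1 differed by -0.999 (95% interval -1.69 to -0.31, adjusted p 1).

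Across the 12 groups the order of levels had few clear steps. Sult1e1 averaged 7.37 ± 0.74 after dexamethasone and 6.60 ± 1.43 after the combined injection (SD, n = 5 each), and the next group, 100 ppb in water on AIN-76A, averaged 3.15 ± 1.10 (SD, n = 4). Its other 9 group means lay between 2.11 and 2.86. Sult1d1 averaged 11.26 ± 0.35 after dexamethasone and 10.62 ± 0.69 after the combined injection (SD, n = 5 each), and its other 10 means lay between 8.02 and 8.87. In each gene, of the 11 steps between neighbouring groups, only the 1 below the combined injection was larger than the larger SD of its pair. Sult1b1 and Papss2 had 0 such steps. Sult5a1 had 1, between the lowest LRD-5001 group at 6.66 ± 0.22 and the highest AIN-76A group at 6.41 ± 0.20 (SD, n = 5 each).

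Sult1a1 had group means between 10.4 and 11.0, with the 4 injected groups highest and no step larger than the larger SD. Sult1c2 means lay between 3.01 and 4.22, and Papss1 means between 4.96 and 5.71. Neither was called in any contrast, and neither had a step larger than the larger SD.

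Likeness was described by Pearson's r of the 12 group means, over 1667 genes whose group means span at least 1 log2 unit, as a description with no p, since groups share diets and injections. Sult1e1 and Sult1d1 had an r of 0.933, and both were highest in the 2 groups given dexamethasone. The genes closest to Sult1e1 were Fam107a (r 0.99), Plin5 (r 0.988), a lipid droplet protein, and Aebp2 (r 0.986). Closest to Sult1d1 were Cab39l (r 0.99), Sec14l4 (r 0.983) and Ankrd44 (r 0.983). Sult1b1 was closest to Acad10 (r 0.972), Acaa1b (r 0.968), a peroxisomal thiolase, and Ces1g (r 0.963), a carboxylesterase. For Sult5a1 they were Fam210a (r 0.962), Cyp4v3 (r 0.941) and Aadat (r 0.93), and for Papss2 they were Tm4sf1 (r 0.982), Mettl7a1 (r 0.973) and Fam89a (r 0.963).

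Genes that supply sulfate moved with diet in part. Sulfate comes from the breakdown of cysteine and from uptake, and of 13 measured genes of this list 4 were called higher on LRD-5001 and 1 lower. Over all probe sets 2.67% were called higher and 1.59% lower in this contrast, which is the background for each of the pathway lists. Cth, which makes cysteine from cystathionine, lay between 10.4 and 11.6 on LRD-5001 and between 9.38 and 10.6 on AIN-76A, and its averaged difference was 1.06 (SE 0.10, adjusted p 1.51e-09 in limma). Suox, the sulfite oxidase that makes sulfate, lay between 7.13 and 8.19 on LRD-5001 and between 5.40 and 7.42 on AIN-76A, with a difference of 0.94 (SE 0.15, adjusted p 4.61e-05 in limma). Ethe1 differed by 0.78 and Sqor by 0.30, both enzymes of mitochondrial sulfide oxidation. Got1, an aspartate aminotransferase that also acts on cysteine sulfinate, differed by -0.55. The list's median difference was 0.07, against -0.01 for all probe sets, and its other 8 genes were not called. Without arrays B and C of the 100 ppb AIN-76A group, Sqor was at 0.27 with an adjusted p of 0.0505 in limma, and the other 4 were still called.

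After dexamethasone 1 of the 13 supply genes was called higher and 1 lower. Over all probe sets 0.984% were called higher and 1.74% in either direction, the background for each list after dexamethasone. Cdo1, which oxidises cysteine, averaged 12.16 after dexamethasone and 11.54 after saline, a rise of 0.62 (adjusted p 0.0446 in limma). Sqor averaged 7.70 after dexamethasone and 8.53 after saline, and it fell by 0.83 (adjusted p 0.022 in limma). After the combined injection 0 of the 13 were called against saline, and 1 was called higher against arsenite alone.

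Among 7 other cytosolic sulfotransferases measured, Sult2a8, a bile acid sulfotransferase of mouse liver, was the 1 called between diets. It lay between 11.0 and 11.9 on LRD-5001 and between 8.87 and 11.7 on AIN-76A, and its averaged difference was 0.80 (SE 0.14, adjusted p 0.000295 in limma). Its 2 lowest arrays on AIN-76A were again B and C of the 100 ppb group, at 9.16 and 8.87, where the other 5-week arrays on AIN-76A were at 10.54 or higher. Without them the averaged difference was 0.53 (adjusted p 0.000273 in limma). The other 6 averaged between 1.88 and 2.57 on both diets and differed by at most 0.05. None of the 7 was called after dexamethasone or the combined injection, though the levels of Sult2a8 were lower. It averaged 10.23 after dexamethasone (9.93 to 10.47) and 9.38 after the combined injection (7.09 to 10.79), against 10.90 after saline (10.52 to 11.26). The 4 measured genes of PAPS transport and of the clearance of its product PAP gave 0 calls between the averaged diets and 0 after either injection with dexamethasone.

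Of 17 sulfotransferases of the Golgi, which act on proteins and sugar chains and draw on the same PAPS, 3 were called lower on LRD-5001 and 0 higher. Hs3st3b1 differed by -0.42, Hs6st1 by -0.50 and Tpst2 by -0.35, and none of the 17 was called after dexamethasone. Without arrays B and C, Tpst2 was at -0.29 with an adjusted p of 0.0577 in limma, while Hs3st3b1 and Hs6st1 were still called. Sulfatases remove sulfate, and 2 of 11 measured were called between diets. Arsg, a lysosomal sulfatase, averaged 5.09 on LRD-5001 and 6.12 on AIN-76A, a difference of -1.03 (adjusted p 2.43e-07 in limma), and Arsa, also lysosomal, was higher on LRD-5001 by 0.50. After dexamethasone Arsg was the 1 of 11 called, at 7.19 after dexamethasone and 5.65 after saline, a rise of 1.54 (adjusted p 0.000366 in limma).

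Receptors known to act on sulfotransferase genes were measured in 11 cases. Nr1i3, the constitutive androstane receptor, lay between 6.59 and 7.48 on LRD-5001 and between 4.30 and 7.78 on AIN-76A, and its averaged difference was 1.11 (SE 0.16, adjusted p 1.17e-05 in limma). Nr1i2, the pregnane X receptor, was higher on LRD-5001 by 0.59 and Hnf4a lower by 0.25. None of the 11 was called after dexamethasone.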

How the data were processed

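Liver RNA was measured on 59 arrays, 1 per sample, grouped by the sample titles. Log2 expression values per probe set were deposited by the authors, who summarised them with RMA per the submitters' processing notes. Which program ran RMA, and how it was set, is not given in the sources used here. RMA compresses dim signals, which can understate folds of dim genes.

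From these values, 64 control probe sets were left out and group means were fitted with limma 3.58.1 (lmFit and eBayes) in R 4.3.3 to all 45037 others, with no filter or further normalization. The 39 arrays of the 5-week groups and the 20 arrays of the injected groups were fitted separately, and saline against undisturbed controls in a fit of all 59. Within a contrast, Benjamini-Hochberg adjustment covered every probe set tested, with a threshold of 0.05, and intervals are 95%. The fit was tested on simulated data. No 2 arrays were duplicates (the highest correlation between arrays was 0.994). The number of arrays limits the precision.

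All 8 members are described. From the pathway lists, genes called are given with their values, and for each called member the 3 genes most like it. Members and lists were chosen with earlier results of these data known. Replicate letters were checked as pairs: of 32 same-letter pairs, 10 had deviations correlated above 0.1, within a range of -0.493 to 0.521, so the letters were not taken as pairing. Promoter windows came from RefSeq, and protein sequences were not used here.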

Additional observations from a re-analysis of the deposited data

Results flagged for a closer look

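In 8 of 96 sets of a member in a group, the highest or lowest array lay farther from its nearest neighbour than Dixon's 95% critical value allows, and a share of such sets is flagged by chance alone. Of these 8 arrays, 3 were the ones that stood apart on the principal component: Sult1c2 on AIN-76A with 10 ppb in food, at 2.936 in replicate D against 3.73 to 3.97 in the other arrays, Sult1d1 on LRD-5001 with 10 ppb in food, at 7.692 in replicate C against 8.74 to 9.17, and Sult1d1 after dexamethasone, at 10.641 in replicate C against 11.28 to 11.47. Sult1d1 was the member most often low in those arrays.

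The other 5 values came from other arrays. Sult1c2 after the combined injection was at 2.676 in replicate A, against 3.04 to 3.17 in the others. Sult1e1 on LRD-5001 with 10 ppb in food was at 3.444 in replicate F, against 2.08 to 2.33. Sult5a1 after dexamethasone was at 6.675 in replicate D, against 5.38 to 5.74. Papss1 was at 5.895 in replicate C of the 100 ppb water group on AIN-76A, against 4.62 to 4.75, and at 5.929 in replicate A of the food group on AIN-76A, against 5.33 to 5.43. The calls of Sult1d1 and Sult1e1 after dexamethasone were kept when any 1 array was left out.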

How the results depend on the processing

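The calls of Sult1d1 and Sult1e1 after dexamethasone and the combined injection, each against saline, were kept under every alternative in which they were tested, with adjusted p up to 0.0337. Leaving out probe sets with a mean under 4 drops Sult1e1 and Sult1c2 before the test, which leaves 1 member called in each of these comparisons. The count for diet averaged over exposures was 3 to 4 when 1 array at a time was left out, and 3 with a replicate block, which loses Sult1d1 (adjusted p 0.0745) and changed no other count of members. Sult1d1 was lost between diets in 28 of 50 alternatives, among them all 59 arrays in 1 fit (0.0793) and equal array medians (0.0551). The 5 sulfate supply genes called became 4 without arrays B and C of the 100 ppb AIN-76A group. For diet in controls the count was 0 when only the groups compared were fitted (Sult1b1, adjusted p 0.0919) and 0 to 1 with 1 array left out, being 0 without AIN-76A control array C. For 100 ppb in water on AIN-76A it was 0 to 2, being 2 without replicate A. Diet differences at 100 ppb lost their calls when only the groups compared were fitted (Sult1b1 0.0558, Sult5a1 0.271, Papss2 0.181, adjusted p) and without replicate B (0.0717, 0.127 and 0.054), and Sult5a1 also without replicate C (0.0803). The cause was not tested. No result reversed. Levels near the array medians, such as Sult1e1 outside the dexamethasone groups, are limited by signal over background, and 4 or 5 arrays per group limit the size of change that passes.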
